A study of Mus musculus with 16 samples.

Results

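Members of the miR-23, miR-27 and miR-24 family were followed in whole lungs of mice with ovalbumin-induced allergic airways disease. They were chosen by name, as every row of the array named mmu-miR- with 23a, 23b, 27a, 27b or 24 and either the 3p arm or no arm in the name. This gave 5 of the 611 mouse miRNAs on the array, namely mmu-miR-23a-3p, mmu-miR-27a-3p, mmu-miR-23b-3p, mmu-miR-27b-3p and mmu-miR-24-3p. Each of them was detected on all 16 arrays.

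A miRNA is a short RNA that pairs, mainly through the seed near its 5′ end, with messenger RNAs and lowers their translation or stability. The miR-23, miR-27 and miR-24 hairpins lie next to each other in the genome as a pair of clusters, miR-23a/27a/24-2 and miR-23b/27b/24-1, and the hairpins of a cluster are made from a shared primary transcript. Members of the family are known for roles in blood vessels, in muscle and fat, and in T cells, where they restrain the cytokine programmes of helper T cells.

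Total RNA came from lungs of BALB/c mice aged 8 to 12 weeks, and the groups were PBS/PBS with 2 arrays, PBS/OVA and OVA/OVA DEX with 4 arrays each, and OVA/OVA with 6 arrays. OVA is ovalbumin from chicken egg, the allergen of this model. The first name of a group gives the injection on day 0, which was 1 mg Alhydrogel (an aluminium adjuvant) alone for PBS and with 50 μg OVA for OVA, so every group carried the adjuvant. The second name gives the intranasal challenge on days 12 to 15, either PBS or 10 μg OVA. DEX is dexamethasone, a synthetic glucocorticoid, given at 3 mg/kg from day 11, and no group received dexamethasone without allergy. Lungs were taken 24 hours after the last challenge. The labels number the replicates of a group without saying that each is a separate animal, so the p-values measure the spread between these arrays. The study's methods text gives an OVA challenge for all mice, and the PBS/PBS group is described here by its labels.

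In the mouse genome GRCm38.p6, Mir23a, Mir27a and Mir24-2 lie within chr8:84208518-84208921, a stretch of 404 bases on the plus strand with no protein-coding gene around it in RefSeq. Mir23b, Mir27b and Mir24-1 lie within chr13:63300484-63301275, 792 bases on the plus strand and inside the gene Aopep. The mature sequences below, from RefSeq, are shown because they decide which members the array can tell apart, with the seed (bases 2 to 8) in capitals.
mmu-miR-23a-3p: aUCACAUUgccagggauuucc
mmu-miR-27a-3p: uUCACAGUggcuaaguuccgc
mmu-miR-27b-3p: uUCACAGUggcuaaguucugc
mmu-miR-24-3p: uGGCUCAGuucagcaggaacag
mmu-miR-24-1-5p: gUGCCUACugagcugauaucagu
mmu-miR-24-2-5p: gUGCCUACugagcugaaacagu
The sequences of miR-27a-3p and miR-27b-3p share the seed and differ by the substitution C19U, counted from 1 at the 5′ end of miR-27a-3p. With probes to sequences so close, each signal can hold a part of the other, and that part was not tested. No sequence was found for miR-23b-3p, so none is printed and it was not compared with miR-23a-3p. Whether the signals of miR-23a-3p and miR-23b-3p share such a part was not tested either. The sequence of miR-24-3p is encoded by both Mir24-1 and Mir24-2, so its signal is the sum of both clusters, whereas the 5p arms of these hairpins differ and have probes of their own. Sequences were found for 476 of the 611 array names, and among these no miRNA outside the family shared the seed of one of the members printed above.

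Values are log2 signals after each array was scaled, and a difference of 1 is a 2-fold change. A call is an adjusted p under 0.05 (limma, Benjamini-Hochberg over 266 miRNAs), with no fold limit. The PBS/PBS arrays were all on slide 1, and each other group had arrays on both slides. Before scaling, the summed miRNA signal ranged from 251350 to 733489 in OVA/OVA, whereas PBS/PBS had 793227 and 940050, PBS/OVA had 493063 to 718149, and the dexamethasone group had 499733 to 638811, so the dimmest arrays were OVA/OVA arrays. The lungs are bulk samples, in which fewer cells of a type and less RNA per cell cannot be told apart.

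miR-23a, miR-23b and miR-24 were lower in allergic lungs than in sensitised and challenged lungs under dexamethasone. These calls were lost with no scaling between arrays, and that of miR-24 also with quantile normalization. The same members were also lower than in PBS/OVA lungs, where the calls were lost under several other settings. miR-27a passed the test only against the dexamethasone group. That call was lost with no scaling as well, and quantile normalization did not keep its direction. With the main scaling miR-27b passed the test in no comparison. After the main scaling no member reached 2-fold in any comparison, and the largest difference was the 1.5-fold difference of miR-23a between OVA/OVA and OVA/OVA DEX.

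miR-23a-3p measured 14.04 and 14.07 in PBS/PBS. It measured 14.10, 13.77, 14.11 and 14.15 in PBS/OVA, where replicate 2 stood below the others. In OVA/OVA the lowest of 6 arrays was 13.46, the median lay at 13.74 (mean 13.74 ± 0.192, SD, n = 6) and the highest was 14.01. The dexamethasone arrays gave 14.48, 14.27, 14.20 and 14.34. All OVA/OVA arrays were thus below all dexamethasone arrays and below both PBS/PBS arrays, and they overlapped PBS/OVA. Both PBS/PBS and all PBS/OVA arrays were also below all dexamethasone arrays.

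miR-23b-3p, which is encoded in the other cluster, measured 12.87 and 12.86 in PBS/PBS and 12.87, 12.75, 12.87 and 12.93 in PBS/OVA. In OVA/OVA it ranged from 12.22 to 12.78 with a mean of 12.52 ± 0.188 (SD, n = 6). Under dexamethasone it measured 13.06, 12.92, 12.87 and 13.04. OVA/OVA lay below PBS/PBS and below OVA/OVA DEX without overlap, and 1 OVA/OVA array was above the lowest PBS/OVA array.

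miR-24-3p, the product of both clusters, measured 13.56 and 13.52 in PBS/PBS and 13.61, 13.40, 13.59 and 13.56 in PBS/OVA. Its OVA/OVA arrays were the most spread of the family, from 12.80 to 13.55 with a mean of 13.17 ± 0.286 (SD, n = 6). The values with dexamethasone were 13.84, 13.55, 13.57 and 13.65. The highest OVA/OVA array reached the level of the other groups, and OVA/OVA replicates 2 and 6 lay well below them, at 12.80 and 12.88.

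miR-27a-3p was the least spread in OVA/OVA, from 13.05 to 13.16 with a mean of 13.10 ± 0.038 (SD, n = 6). It measured 13.15 and 13.10 in PBS/PBS and 13.20, 13.04, 13.26 and 13.15 in PBS/OVA. With dexamethasone it measured 13.52, 13.25, 13.34 and 13.36, above every OVA/OVA and PBS/PBS array. The OVA/OVA and PBS/OVA arrays overlapped.

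miR-27b-3p, with the same seed as miR-27a-3p, measured 11.47 and 11.46 in PBS/PBS and 11.61, 11.46, 11.55 and 11.50 in PBS/OVA. It ranged from 11.33 to 11.56 in OVA/OVA, with a mean of 11.49 ± 0.0796 (SD, n = 6), and measured 11.72, 11.41, 11.47 and 11.50 in OVA/OVA DEX. The groups overlapped in every pair. Non-overlap of arrays is described for the members only, and how common it is among the 266 miRNAs tested is not given. Non-overlap alone therefore does not set a member apart from other miRNAs. Calls were frequent when OVA/OVA was set against the dexamethasone group, with 142 of the 266 passing the test.

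**Figure D1:**
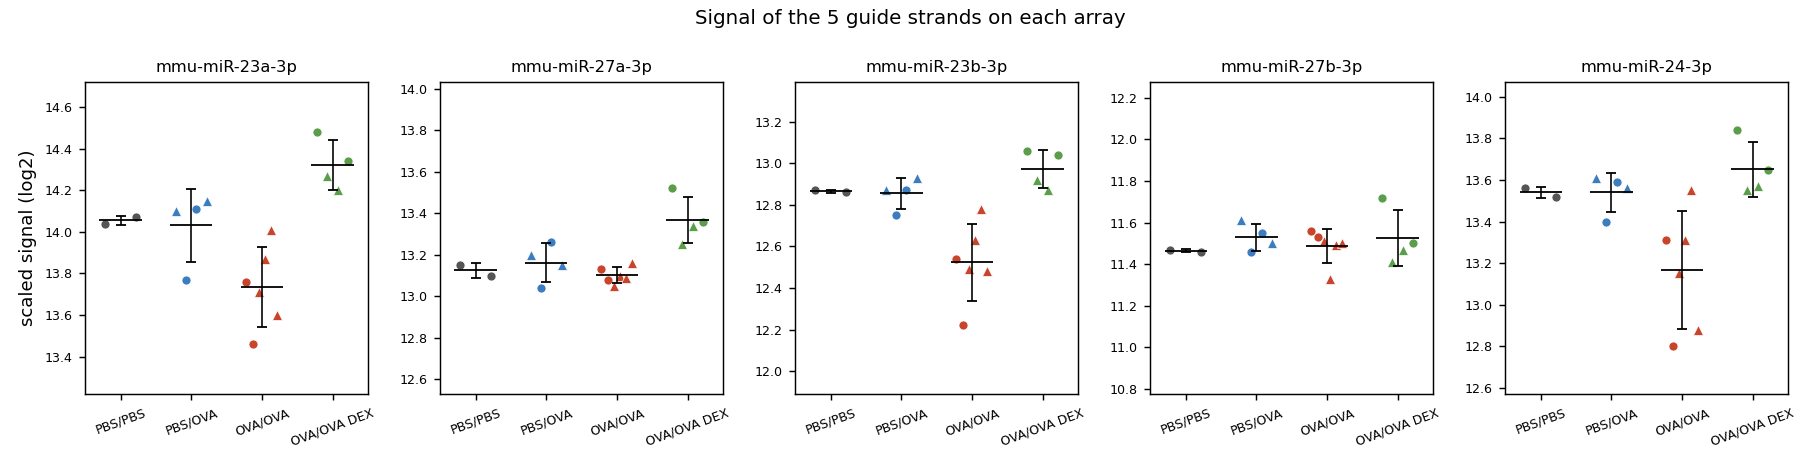
Scaled signal (log2) of the 5 miRNAs on each array by group, with circles for slide 1, triangles for slide 2, a bar at the group mean and whiskers of 1 SD (n = 2, 4, 6 and 4); each panel spans 1.5 log2 units at its own level. All 6 OVA/OVA arrays of miR-23a, miR-23b and miR-27a lie below the 4 OVA/OVA DEX arrays, and the miR-27b arrays of the 4 groups overlap. How common such separation is among other miRNAs is not given.

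The comparison of OVA/OVA with OVA/OVA DEX asks how the allergic lung differs when it is treated with a glucocorticoid. Of the 5 members, 4 were lower in OVA/OVA and 0 higher, where 32.3% of the 266 miRNAs tested were called lower and 21.1% higher. The median difference of the members was -0.45, beside -0.09 over all miRNAs tested. miR-23a was lower by -0.59 on the log2 scale (SE 0.106, adjusted p = 0.000717, limma), and by -0.80 on slide 1 and -0.44 on slide 2. miR-23b was lower by -0.45 (SE 0.0908, adjusted p = 0.0014), by -0.67 and -0.30 on the 2 slides. miR-24 was lower by -0.49 (SE 0.128, adjusted p = 0.00763), by -0.69 and -0.34 on the slides. miR-27a was lower by -0.26 (SE 0.0617, adjusted p = 0.00371), by -0.33 and -0.19 on the slides. For miR-27b the difference was -0.04 (95% interval -0.18 to 0.11, adjusted p = 0.673). The 2 probes of miR-27a gave -0.14 and -0.32, and those of miR-27b gave -0.07 and 0.10. Both probes of miR-23a, miR-23b and miR-24 were lower. All 4 calls held when any array was left out. Under quantile normalization the calls of miR-23a (-0.43) and miR-23b (-0.22) held, those of miR-24 (-0.23) and miR-27a (0.02) were lost, and miR-27b turned higher at 0.27 (adjusted p = 0.0445), while with no scaling between arrays 0 of the 5 passed.

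Setting OVA/OVA against PBS/OVA asks what sensitisation adds to the same challenge. Of the 5 members, 3 were lower and 0 higher, where 16.9% of all miRNAs tested were called lower and 14.7% higher. miR-23a was lower by -0.29 (SE 0.106, adjusted p = 0.0493), miR-23b by -0.33 (SE 0.0908, adjusted p = 0.0162) and miR-24 by -0.37 (SE 0.128, adjusted p = 0.0426). Within slides 1 and 2, the difference was -0.33 and -0.33 for miR-23a, -0.43 and -0.30 for miR-23b, and -0.44 and -0.36 for miR-24. The miR-27 members gave -0.06 (miR-27a, 95% interval -0.20 to 0.07, adjusted p = 0.446) and -0.04 (miR-27b, 95% interval -0.19 to 0.10, adjusted p = 0.622). The call of miR-23b held when any array was left out. The call of miR-24 was lost without either PBS/PBS array, without PBS/OVA replicate 1, 3 or 4, without OVA/OVA replicate 2, 3 or 6, or without OVA/OVA DEX replicate 2 or 3, and that of miR-23a without any of these or OVA/OVA replicate 1, with adjusted p up to 0.108 and 0.132. With no scaling, the percentile over all miRNAs, the Mann-Whitney test that the methods name or array brightness as a covariate, 0 of the 5 passed, and the adjusted p of miR-23b was then 0.128, 0.0612, 0.0685 and 0.0622.

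Against PBS/PBS, the controls challenged with PBS by their labels, 1 of the 5 members was called lower in OVA/OVA and 0 higher. In this comparison 12% of all miRNAs tested were called lower and 13.2% higher. The member called was miR-23b at -0.34 (SE 0.115, adjusted p = 0.0453). The values of miR-23a (-0.32, adjusted p = 0.0926) and miR-24 (-0.37, adjusted p = 0.0956) were of the same size, and miR-27a (-0.03) and miR-27b (0.02) lay near 0. On slide 1 alone, which held all PBS/PBS arrays, the differences were -0.44 for miR-23a, -0.48 for miR-23b, -0.49 for miR-24, -0.02 for miR-27a and 0.08 for miR-27b. The call of miR-23b was lost without 11 of the 16 arrays, namely either PBS/PBS array, PBS/OVA replicate 1, 3 or 4, OVA/OVA replicate 1, 2, 3 or 6, or OVA/OVA DEX replicate 2 or 3, with adjusted p up to 0.238. Without OVA/OVA replicate 5 the number called was 3, and without OVA/OVA DEX replicate 4 it was 2.

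Between PBS/OVA and PBS/PBS, which differ by the OVA challenge without sensitisation, 0 of the 5 members passed in limma. The differences ran from -0.02 to 0.07, with 95% intervals of -0.33 to 0.29 for miR-23a and -0.37 to 0.37 for miR-24. Intervals of this width do not show that the members were unchanged. In this comparison 0.376% of all miRNAs tested were called higher and 0% lower, and 11 of 266 had an unadjusted p under 0.05, with 0 members among them. Between OVA/OVA DEX and PBS/OVA 0 members were called, where 0.376% of all miRNAs were called higher and 1.88% lower. There, miR-23a was at 0.29 (95% interval 0.04 to 0.54, adjusted p = 0.159) and miR-27a at 0.20 (95% interval 0.06 to 0.35, adjusted p = 0.131), the 2 members with an unadjusted p under 0.05, as had 59 of all 266 miRNAs. Between OVA/OVA DEX and PBS/PBS 0 members were called, as were 0% of all miRNAs in either direction, and 1 member, miR-27a at 0.24 (adjusted p = 0.28), had an unadjusted p under 0.05, as had 18 of all 266 miRNAs. The comparisons share groups of arrays, so their values are not independent of each other.

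**Figure D2:**
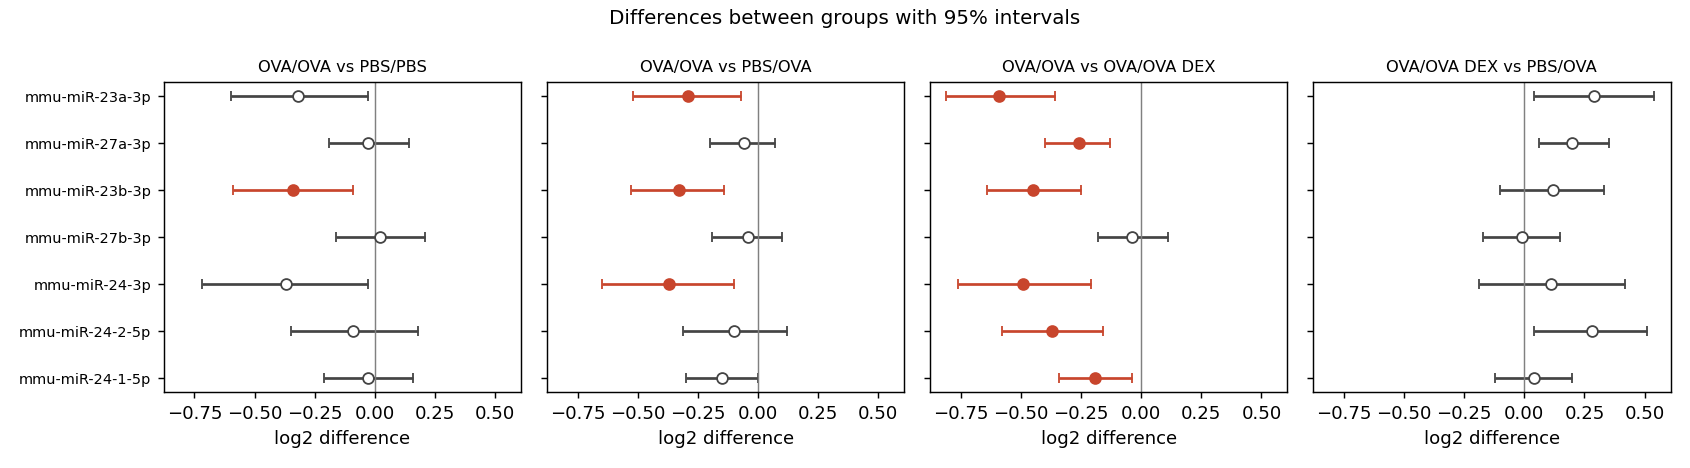
Difference of group means (log2 of scaled signal, first group minus second) for the 5 members and the 2 detected 5p arms, with 95% intervals from limma; filled red points have an adjusted p under 0.05 and open points do not. In the comparison of OVA/OVA with OVA/OVA DEX, miR-27b is the only one of the 7 with an open point.

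The opposite arms of the hairpins gave a reading per cluster for miR-24. miR-24-2-5p, from the chromosome 8 cluster, averaged 8.70 in PBS/PBS, 8.71 in PBS/OVA, 8.61 in OVA/OVA and 8.98 in OVA/OVA DEX, and OVA/OVA was lower than OVA/OVA DEX by -0.37 (SE 0.0985, adjusted p = 0.00772) with no overlap. miR-24-1-5p, from the chromosome 13 cluster, averaged 6.92, 7.04, 6.89 and 7.08, and was lower by -0.19 (SE 0.0683, adjusted p = 0.032) in the same comparison, with overlap. Its 2 probes gave 0.00 and -0.24. Neither arm passed in the other 5 comparisons. miR-27a-5p and miR-27b-5p were not well above background on any array, and rows for the 5p arms of miR-23a and miR-23b were not found.

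A ratio of 2 members on the same array does not change when the array is multiplied by a scaling factor. The height of such a ratio depends on the probes and has no meaning of its own, so only its change between groups is described. The ratios in 3 comparisons gave 12 exact two-sided permutation tests. The chromosome 8 members were higher relative to their chromosome 13 relatives in OVA/OVA DEX than in OVA/OVA, and no such difference passed between OVA/OVA and PBS/OVA.

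The log2 ratio of miR-23a to miR-23b was 1.17 and 1.21 in PBS/PBS and 1.23, 1.03, 1.23 and 1.23 in PBS/OVA. It ran from 1.13 to 1.25 in OVA/OVA, with a median of 1.22, and was 1.42, 1.35, 1.33 and 1.30 in OVA/OVA DEX. Every dexamethasone array was above every other array. The difference of OVA/OVA from OVA/OVA DEX was -0.14 (SE 0.0308, exact permutation p = 0.00476, adjusted p = 0.0286), with -0.13 and -0.14 within the slides.

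The log2 ratio of miR-27a to miR-27b was 1.69 and 1.64 in PBS/PBS and 1.59, 1.58, 1.72 and 1.65 in PBS/OVA. It ran from 1.54 to 1.76 in OVA/OVA, with a median of 1.59, and was 1.80, 1.84, 1.86 and 1.86 in OVA/OVA DEX. Again every dexamethasone array was above every other array. The difference of OVA/OVA from OVA/OVA DEX was -0.23 (SE 0.0372, exact permutation p = 0.00952, adjusted p = 0.0381), with -0.27 and -0.21 within the slides.

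For the mean of both pairs, the PBS/PBS average was 1.43 ± 0.00116 (SD, n = 2), that of PBS/OVA 1.41 ± 0.0746 (n = 4), that of OVA/OVA 1.41 ± 0.0448 (n = 6) and that of OVA/OVA DEX 1.60 ± 0.0129 (n = 4). OVA/OVA was below OVA/OVA DEX by -0.18 (SE 0.0194, exact permutation p = 0.00476, adjusted p = 0.0286), with -0.20 and -0.18 within the slides. OVA/OVA DEX was above PBS/OVA by 0.19 (SE 0.0378), at the smallest p that 4 against 4 arrays allow in an exact permutation test (p = 0.0286, adjusted p = 0.0571), so this difference did not pass. OVA/OVA and PBS/OVA differed by 0.01 (SE 0.0415, exact permutation p = 0.843). The calls against the dexamethasone group were lost without OVA/OVA replicate 1, 2, 3, 5 or 6, where the values stayed between -0.26 and -0.11 for the 3 ratios, and also with quantile normalization or the deposited values.

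The ratio of the miR-24 5p arms was also highest under dexamethasone. The log2 ratio of miR-24-2-5p to miR-24-1-5p averaged 1.90 in OVA/OVA DEX, 1.72 in OVA/OVA, 1.67 in PBS/OVA and 1.78 in PBS/PBS. The dexamethasone arrays, from 1.84 to 2.03, were again above every array of the other groups. This ratio was chosen after its values were seen and was not tested. Its miR-24-1-5p side may rest on the probe that gave -0.24 above.

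**Figure D3:**
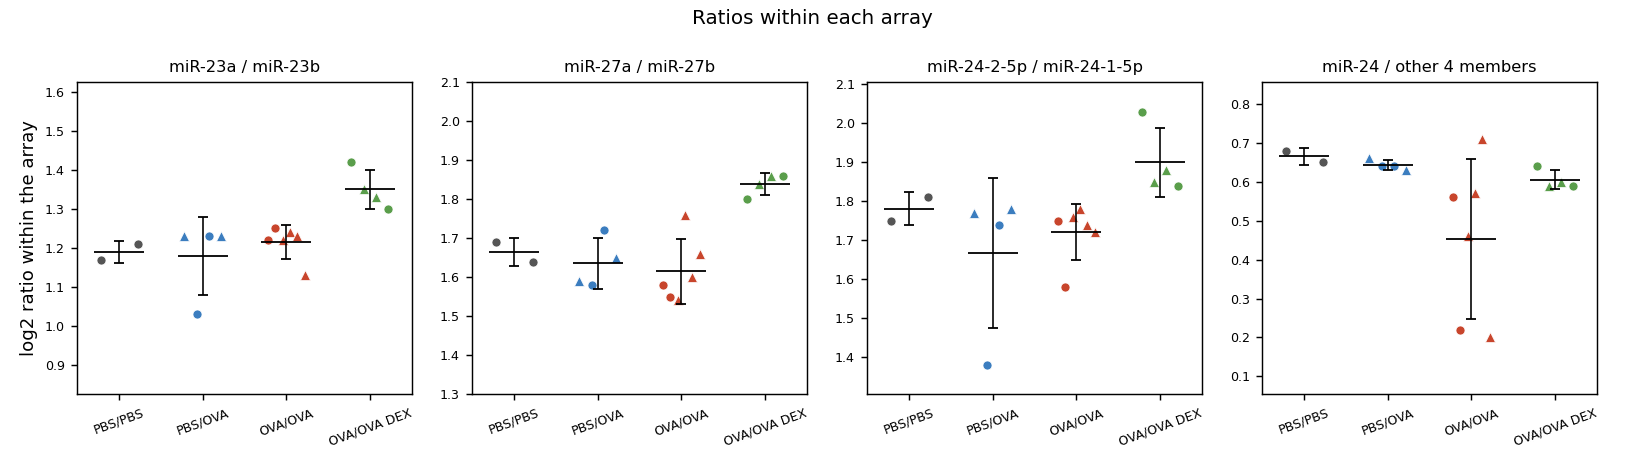
Log2 ratios within each array, by group, with circles for slide 1, triangles for slide 2, a bar at the mean and whiskers of 1 SD. In the first 3 panels, which set a chromosome 8 product against its chromosome 13 relative, the 4 OVA/OVA DEX arrays lie above all others, and in the fourth the OVA/OVA arrays spread from 0.20 to 0.71.

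Ratios between products of the same cluster were also followed. The log2 ratio of miR-23b to miR-27b ran from 0.68 to 1.30 in OVA/OVA and from 1.34 to 1.54 in OVA/OVA DEX, with means of 1.04 and 1.45, and it was 1.40 on both PBS/PBS arrays. The log2 ratio of miR-23a to miR-27a averaged 0.63 in OVA/OVA against 0.96 in OVA/OVA DEX and 0.87 in PBS/OVA, with overlapping arrays. These within-cluster ratios were chosen after the values were seen and were not tested. The ratio of miR-24 to the mean of the other 4 members had an SD of 0.206 in OVA/OVA (n = 6) against 0.0148 in PBS/OVA and 0.0236 in OVA/OVA DEX (n = 4 each). Its mean in OVA/OVA differed from PBS/OVA by -0.19 (SE 0.0842, exact permutation p = 0.11) and from OVA/OVA DEX by -0.15 (SE 0.0847, exact permutation p = 0.21).

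Before any scaling, the 5 members together held 9.33% and 9.48% of the summed miRNA signal in PBS/PBS and 8.68% to 9.26% of it in PBS/OVA. In OVA/OVA lungs the share was 6.74% to 8.27%, and with dexamethasone 8.55% to 10.4%. All 6 OVA/OVA arrays lay below the 10 others. Their summed signals were under those of every other array on 4 of the 6, and were 707731 and 733489 on OVA/OVA replicates 1 (share 8.01%) and 4 (8.14%). A share falls when other miRNAs take more of the signal, so it is not a level.

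**Figure D4:**
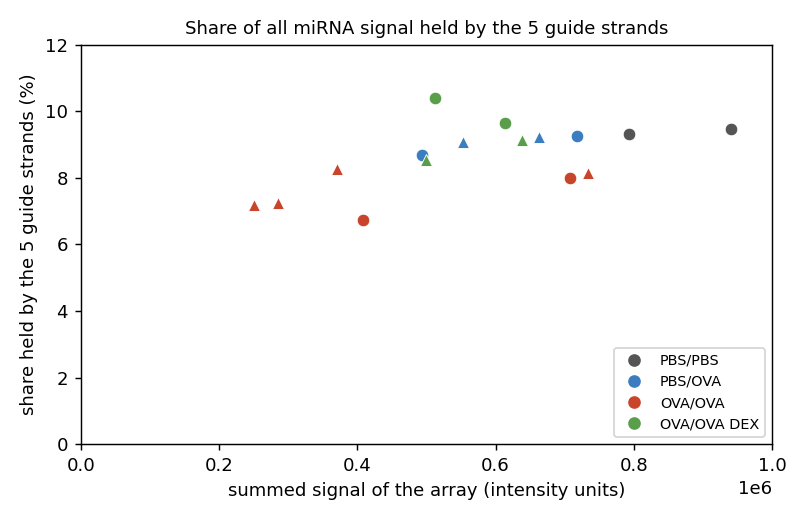
Share (%) of the summed miRNA signal held by the 5 members on each array against the array's summed signal (intensity units), with circles for slide 1 and triangles for slide 2. The 6 OVA/OVA arrays hold 6.74% to 8.27% and lie below the 10 others, and no array of another group has a summed signal under 493063.

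Markers of other cells moved in the same comparisons. All 5 haematopoietic miRNAs of the marker list rose in OVA/OVA against PBS/OVA, 4 of 5 against OVA/OVA DEX and 3 of 5 against PBS/PBS, and their summed signal was 15.01 to 15.56 in OVA/OVA against 13.99 to 14.73 in the other groups. Both arms of miR-126, a miRNA of endothelial cells, fell against PBS/OVA and OVA/OVA DEX, with a summed signal of 14.90 to 15.32 in OVA/OVA and 15.22 to 15.57 in the others. The erythroid miR-144-3p and miR-451 were both lower in OVA/OVA than in OVA/OVA DEX, with a median of -1.05 and summed signals of 15.18 to 16.11 and 16.61 to 17.06. Both PBS groups lay below the dexamethasone arrays too, at 16.15 to 16.28 in PBS/PBS and 15.55 to 16.42 in PBS/OVA, so the erythroid signal and the ratios of chromosome 8 to chromosome 13 members were highest on the same 4 arrays. None of the markers matched to a row in these 3 lists was at background. No row was matched to miR-486-5p by name, though the paper lists it among its changed miRNAs. The part of these cells in the members' differences was not tested. Of the 5 epithelial markers, 1 rose and 0 fell against PBS/OVA, 1 rose and 1 fell against OVA/OVA DEX, and their summed signal stayed between 13.06 and 13.35 on all arrays. Against OVA/OVA DEX, 2 of 2 smooth muscle markers, 2 of 3 fibroblast markers and 1 of 2 tested striated muscle markers were lower and 0 higher in OVA/OVA, while of 3 markers of ciliated epithelium 2 were lower and 1 higher; miR-206-3p was not detected on any array. Against PBS/OVA, 1 fibroblast marker and 1 striated muscle marker were lower in OVA/OVA, and 0 of the smooth muscle and ciliated markers passed.

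The miRNAs most like each member over the 16 arrays, by Pearson's r of scaled log2 signal among 205 others detected on every array, were as follows. miR-23a-3p was most like miR-26a-5p, miR-451 and miR-10a-5p (0.97 each). miR-23b-3p was most like miR-24-3p and miR-23a-3p (0.95 each), followed by miR-126-5p (0.93). miR-24-3p was most like miR-23b-3p and miR-152-3p (0.95 each) and miR-30b-5p (0.94). For miR-23a-3p, miR-23b-3p ranked 10 (0.95) and miR-24-3p ranked 16 (0.93), behind miRNAs outside the family. The signals of these 3 members thus varied together, as did those of other miRNAs with them. The miR-24-3p signal is the sum of both clusters, and a shared part of the miR-23a-3p and miR-23b-3p signals was not tested. Whether both clusters varied together can therefore not be read from these values.

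The miR-27 pair stood apart from miR-23a-3p, miR-23b-3p and miR-24-3p. miR-27a-3p was most like miR-24-2-5p of its own cluster (0.94), then miR-144-3p (0.89) and miR-186-5p (0.86), and its r with its cluster neighbour miR-23a-3p was 0.78. miR-27b-3p was most like miR-32-5p (0.69), miR-221-3p (0.68) and miR-484 (0.63), with 0.52 for miR-27a-3p and 0.16 for its neighbour miR-23b-3p. After group means were subtracted, miR-23a-3p and miR-23b-3p ranked first for each other (0.92), and miR-27a-3p ranked second for miR-27b-3p (0.72). To the same rounding, miR-451 and miR-203-3p also reached 0.92 for miR-23a-3p, as did miR-30e-3p for miR-23b-3p. These values describe arrays that share slides and scaling, and carry no test.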

How the data were processed

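MiRNA levels were measured on 16 Agilent 1-colour arrays. The authors deposited Feature Extraction 10.7.3.1 output, in which each spot's intensity has its local background subtracted and no scaling between arrays. They also deposited processed log2 values, with a shift per array that is not described (array medians -7.7 to -5.7). Of the 672 deposited rows, 150 were matched to the scanner values within 0.15, all 5 members included, and served as an alternative.

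Control spots and outlier-flagged spots (3.12%, and 6.25% of the members' 20 spots each) were left out, and 0 spots were saturated. A member's signal was the sum of its 2 probes, each the mean of its spots. Scaling used the 75th percentile of the 206 mouse miRNAs that every array detected, with a floor of 2.61 before log2. Group means of all 16 arrays were fitted with limma 3.58.1 (R 4.3.3) for the 266 miRNAs that all arrays of 1 group or more detected. The study's methods name the Mann-Whitney test, which was run as an alternative. The number of arrays limits the precision. Ratios were tested in Python with exact permutations and Benjamini-Hochberg adjustment over 12 tests. The fit was tested on simulated data.

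The members, marker lists and tests were chosen with earlier results of these data known. Named miRNAs were the members, the other arms of their hairpins, the 3 most alike by correlation, and the markers. Alternatives were other scalings, background correction, filters, blocks, tests and leaving out each array. Array brightness as a covariate was added after the data were seen.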

Additional observations from a re-analysis of the deposited data

Results flagged for a closer look

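In 33 sets of 4 or 6 arrays, 5 values stood apart from the rest of their group by Dixon's test, where chance gives about 1 in 20. PBS/OVA replicate 2 had a low miR-23a-3p (13.77, gap over range 0.848) and a low ratio of miR-23a to miR-23b (1.03, 0.968). OVA/OVA replicate 4 had a low miR-27b-3p (11.33, 0.72) and, with it, a high ratio of the chromosome 8 to the chromosome 13 members (1.50, 0.742). OVA/OVA replicate 6 had a low ratio of miR-23a to miR-23b (1.13, 0.752). Without PBS/OVA replicate 2 the difference of miR-23a-3p between OVA/OVA and PBS/OVA remained below 0, within the range of -0.38 to -0.24 over all arrays left out in turn.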

How the results depend on the processing

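The number of members called in OVA/OVA against PBS/PBS (1) became 4 with the percentile over all miRNAs, 5 with no scaling, 3 with the median, with the members left out of the percentile, with normexp or with the replicate block, and 0 with quantile normalization, no filter, the compared groups only, the Mann-Whitney test, a 2-fold limit or brightness as a covariate. Against PBS/OVA (3) it became 0 with the percentile over all miRNAs, no scaling, the Mann-Whitney test, the 2-fold limit or the covariate, 1 with quantile normalization, no filter or the compared groups only, and 2 with normexp. Against OVA/OVA DEX (4) it became 0 with no scaling or the 2-fold limit, and 3 with quantile normalization, of which miR-27b was higher. In OVA/OVA DEX against PBS/OVA (0) it became 2 with the members left out of the percentile. Leaving out each array gave 0 to 3, 1 to 3, 4 to 4 and 0 to 0 in these comparisons, and 0 to 0 in the other two. With 2 PBS/PBS arrays the Mann-Whitney test cannot reach p under 0.05, so its 0 against PBS/PBS was fixed in advance. No member reached 2-fold after the main scaling, which fixed the counts under the 2-fold limit. The cause of the other shifts was not tested.

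In OVA/OVA against OVA/OVA DEX the median of all miRNAs was -0.09 as reported and moved by over 0.1 with no scaling (-0.38), the percentile over all miRNAs (-0.31) and normexp (0.16), but not with quantile normalization (-0.15). The members' median minus it was -0.36, -0.36, -0.36, -0.61 and -0.08 in this order.

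The 3 ratio differences from OVA/OVA DEX did not pass with quantile normalization (-0.21, -0.25 and -0.23 for miR-23a to miR-23b, miR-27a to miR-27b and both) or the deposited values (-0.12, -0.22 and -0.17). Leaving out each array gave -0.15 to -0.11, -0.26 to -0.21 and -0.20 to -0.18. In OVA/OVA DEX against PBS/OVA it gave 0.12 to 0.19, 0.19 to 0.24 and 0.16 to 0.21, passing without OVA/OVA DEX replicate 1 only, and in OVA/OVA against PBS/OVA -0.01 to 0.05, -0.05 to 0.01 and -0.03 to 0.03. The ratio of miR-24 to the others gave -0.24 to -0.14, -0.20 to -0.10 and -0.05 to -0.03 against PBS/OVA, against OVA/OVA DEX and for OVA/OVA DEX against PBS/OVA, passing in the last without OVA/OVA DEX replicate 1. In OVA/OVA against PBS/OVA, signs turned for miR-23a to miR-23b with quantile normalization (-0.02), miR-27a to miR-27b with the deposited values (0.01) and both with quantile normalization (-0.06) or normexp (-0.01).

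Of the single members that changed sign, miR-27b passed the test after the change against OVA/OVA DEX (quantile normalization) and PBS/PBS (no scaling), and the others did not. Against OVA/OVA DEX, miR-27a in OVA/OVA turned to 0.02 and miR-27b to 0.27 with quantile normalization, and miR-27b to 0.01 with the median. Against PBS/OVA, quantile normalization gave 0.05 for miR-27a and 0.17 for miR-27b. Against PBS/PBS it gave 0.05 for miR-27a (0.01 with the covariate), and miR-27b turned to -0.51 with the percentile over all miRNAs, -1.07 with no scaling, -0.05 with the median or without the members in the percentile, and -0.02 with normexp or the deposited values. In PBS/OVA against PBS/PBS, the covariate gave 0.05, 0.03 and 0.10 for miR-23a, miR-23b and miR-24, quantile normalization 0.00 for miR-23a and the deposited values 0.00 for miR-24. There miR-27a and miR-27b turned to -0.26 and -0.23 with the percentile over all miRNAs, -0.55 and -0.51 with no scaling, and -0.04 and -0.00 without the members in the percentile. In OVA/OVA DEX against PBS/OVA, no scaling gave -0.11 for miR-23b and miR-24 and -0.02 for miR-27a, quantile normalization -0.00 for miR-24, and miR-27b turned to 0.08 without the members in the percentile and 0.03 with the deposited values. In OVA/OVA DEX against PBS/PBS, miR-23a, miR-23b, miR-24, miR-27a and miR-27b turned to -0.04, -0.21, -0.20, -0.08 and -0.25 with the percentile over all miRNAs and to -0.54, -0.70, -0.70, -0.57 and -0.75 with no scaling. There quantile normalization gave -0.03, -0.07 and -0.11 and the median -0.01, -0.00 and -0.05 for miR-23b, miR-24 and miR-27b.

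Leaving out 1 array turned the sign of miR-23a (-0.06 to 0.07), miR-23b (-0.04 to 0.03) and miR-24 (-0.03 to 0.04) in PBS/OVA against PBS/PBS, and of miR-27b in OVA/OVA against PBS/PBS (-0.04 to 0.06), against OVA/OVA DEX (-0.11 to 0.03), and in OVA/OVA DEX against PBS/OVA (-0.07 to 0.03) and PBS/PBS (-0.00 to 0.10). No pairing of samples by replicate number was visible, and the labels do not say whether there was one. Deviations of same-numbered arrays in different groups correlated at -0.59 to 0.38 (median -0.01, 18 pairs). Those of differently numbered arrays correlated at -0.54 to 0.68 (median 0.04, 74 pairs). The replicate block changed no count of members but that of OVA/OVA against PBS/PBS. With PBS/PBS at 1 array, that array is assumed to vary like the others.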
